A study of Mus musculus with 8 samples.

Results

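The 10 genes described here encode antioxidant enzymes in mouse soleus (SOL) muscle and were chosen by name. They are the superoxide dismutases Sod1 and Sod2, catalase (Cat), the glutathione peroxidases Gpx1, Gpx3 and Gpx4, the mitochondrial peroxiredoxin Prdx3, the thioredoxin reductase Txnrd1, the quinone reductase Nqo1 and the heme oxygenase Hmox1. All 10 of 10 have a row among the 24054 genes of the table, and all 10 are among the 11865 genes tested, which reached a value of 1 in 4 or more of the 8 mice. The study asked which genes change in SOL when the transcription factor IRF4 is lost from skeletal muscle. RNA-seq was made on SOL from 4 MI4KO mice, which carry floxed Irf4 alleles (Irf4 flox/flox) and a Cre recombinase driven by the Myl1 locus, and 4 flox mice, which carry the floxed alleles without Cre. The labels give all 8 as male C57BL/6 mice on a high fat diet, 1 mouse a library, with no age. Myl1-Cre acts in skeletal muscle fibers, so the endothelial, immune and connective tissue cells in the same pieces of muscle keep Irf4.

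Superoxide dismutases turn superoxide into hydrogen peroxide, which catalase, the glutathione peroxidases and the peroxiredoxins then break down. Glutathione and thioredoxin supply the electrons for the peroxidases and are themselves reduced by reductases that draw on NADPH. Nqo1 and Hmox1, with Txnrd1, are textbook targets of the stress-activated factor Nrf2. Oxidative muscle such as SOL, rich in mitochondria, uses Sod2 and Prdx3 inside the mitochondrial matrix.

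A feature that the choice of genes did not use sets 4 of the 10 apart. Gpx1, Gpx3, Gpx4 and Txnrd1 are selenoproteins, whose active site holds selenocysteine, encoded by a TGA codon that elsewhere ends translation. The coding sequences around this codon, from the GENCODE transcripts of GRCm38 and all on the + strand, are shown because they are what this biochemical class shares, with the TGA in capitals.
Gpx1: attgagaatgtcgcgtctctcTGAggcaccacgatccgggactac
Gpx3: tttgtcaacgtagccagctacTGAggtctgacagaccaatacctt
Gpx4: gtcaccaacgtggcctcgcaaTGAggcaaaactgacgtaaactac
Txnrd1: gacatcctccagtctggctgcTGAggt
The selenocysteine codon is number 47 of 201 in Gpx1 (chr9:108339451-108339453), number 73 of 226 in Gpx3 (chr11:54907256-54907258) and number 73 of 197 in Gpx4 (chr10:80054737-80054739). In Txnrd1 it is number 498 of 499 (chr10:82896037-82896039), so there the selenocysteine is the penultimate residue. The TGA is followed by a glycine codon (ggc or ggt) in all 4. The first 3 lie in the first part of their proteins, the last at the very end.

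The values are CPM (gene reads scaled to a common library size) normalized by the authors with TMM, and behind them stand 13417512 to 16384565 reads a mouse, recovered from the steps of the values. Slow muscle genes summed to 36514 to 48026 over the 8 mice, and the erythroid list to 378 to 599. Some libraries stood apart from the rest in marker lists. In flox mouse 1 the liver list summed to 153.0, against 0.133 to 0.763 in the other mice, with 15 of 15 liver genes highest there. In MI4KO mouse 3 the glucocorticoid response list summed to 4654, against 2584 to 2976 in the other mice, with 15 of 16 genes highest there, and the neutrophil list to 4.32 against 0.146 to 0.423, with 3 of 7 genes highest there and Mpo and Elane at 0 in every mouse. In MI4KO mouse 1 the endothelial list summed to 352, against 471 to 553 in the other mice, and the fibroblast and adipocyte lists, at 319 and 781, were also lowest. The fast muscle list, led by Myh2, summed to 45099 to 60334, above the slow list in every mouse, so the samples held both kinds of transcript. The fast fiber genes Myh4 (34.5 to 2496) and Actn3 (23.8 to 334) differed widely between mice within both groups. Their part in the values of the enzymes was not tested. Irf4 itself was read 4 to 23 times a library, at 0.686, 1.46, 1.58 and 1.68 in flox mice 1 to 4 and 0.725, 0.840, 0.266 and 1.03 in MI4KO mice 1 to 4. The groups overlapped, since flox mouse 1 lay below 3 of the MI4KO mice, and the log2 fold change was -0.45 (SE 0.197, 95% interval -0.88 to -0.02, n = 4 and 4, exact permutation p = 0.114). limma gave Irf4 an unadjusted p of 0.0402 and an adjusted p of 1.0. On the recovered reads, with a smaller offset, the log2 fold change was -0.86 by edgeR and -0.87 by DESeq2, with unadjusted p-values of 0.0562 and 0.0583, and without MI4KO mouse 3 it was -0.31 by limma, with an unadjusted p of 0.119. The level of Irf4 in whole muscle is therefore a weak check of the labels.

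None of the 10 enzymes differed between MI4KO and flox SOL beyond the spread between mice. By limma, 0 of 10 had an unadjusted p under 0.05, against 3.36% of all genes tested, and 0 of 10 had an adjusted p under 0.05, against 0.0%. The authors' limits, a 1.5-fold change with an unadjusted p under 0.05, were applied here to limma on log2(value + 1). They were met by 0 of 10 enzymes and 0.219% of all genes. The paper reports more SOL genes at these limits by edgeR, an unlike test and scale, so this share is not its count. In 0 of 10 did the MI4KO and flox values fail to overlap, against 2.07% of all genes. edgeR and DESeq2 on the recovered reads also gave 0 of 10 at an unadjusted p under 0.05 and 0 at an adjusted one. Of the 10 fold changes 6 were above zero and 4 below it (9 and 1 with library-total scaling, 7 and 3 with median-of-ratios scaling), with a median of 0.05 on the log2 scale beside -0.01 over all genes tested, and all 10 adjusted p-values by limma were 1.0. In bulk muscle, fewer cells of a type and less RNA per cell cannot be told apart.

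**Figure D1:**
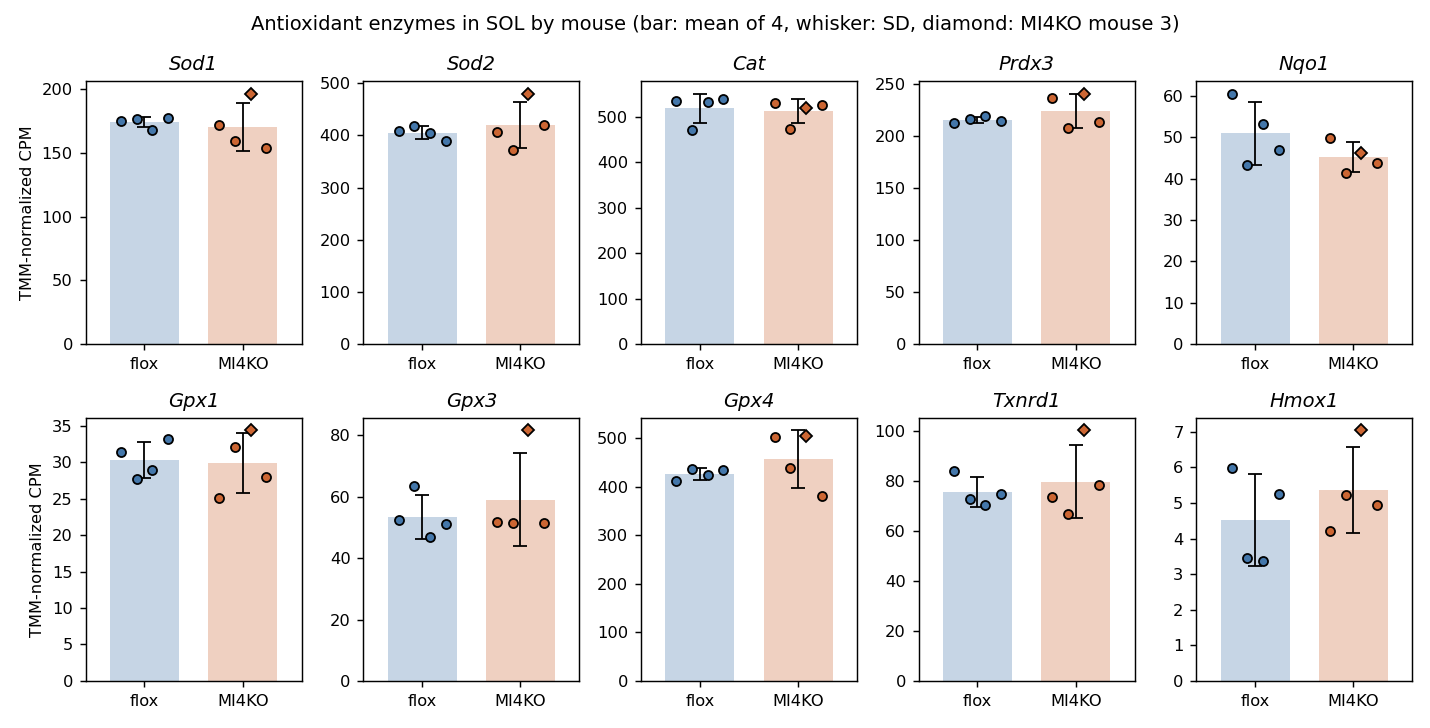
TMM-normalized CPM (vertical axes, each from 0) of the 10 enzymes in 4 flox and 4 MI4KO mice; points are mice, bars means, whiskers SD and the diamond MI4KO mouse 3. In every panel the groups overlap, and in 8 of the 10 panels the diamond is the highest of the 8 points.

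For both superoxide dismutases the mean fold change was smaller than its standard error. Sod1 (chr16:90220754-90226329, + strand), the copper and zinc enzyme of the cytosol, stood at 175, 176, 168 and 177 in flox mice 1 to 4 and at 172, 159, 196 and 154 in MI4KO mice 1 to 4. The flox mice lay within a narrow band and the MI4KO mice lay on both sides of it. The means were 174 ± 4.21 and 170.3 ± 19.1 (SD, n = 4 each), a log2 fold change of -0.04 (95% interval -0.21 to 0.14, exact permutation p = 0.686). Sod2 (chr17:13006846-13040063, + strand), the manganese enzyme of the mitochondrial matrix, stood at 408, 419, 405 and 388 in flox mice and at 407, 372, 480.1 and 419.9 in MI4KO mice. MI4KO mouse 3 was the highest and MI4KO mouse 2 the lowest of the 8, so the whole flox group fell inside the MI4KO range. The log2 fold change of Sod2 was 0.05 (95% interval -0.13 to 0.22, exact permutation p = 0.686), and -0.02 without MI4KO mouse 3.

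Catalase, the peroxisomal enzyme that splits hydrogen peroxide without a reductant, had the fold change nearest zero of the 10 with the deposited scaling, though not with library totals, where Sod1 (0.0060) and Gpx1 (0.016) lay nearer zero than Cat (0.027). Cat (chr2:103453849-103485160, - strand) stood at 534, 470.2, 532 and 538 in flox mice and at 530.3, 474, 519 and 526 in MI4KO mice. In each group 3 mice clustered together and mouse 2 lay lower. Its log2 fold change was -0.02 (SE 0.0733, 95% interval -0.18 to 0.14, exact permutation p = 0.543), and its sign turned under library-total or median-of-ratios scaling. Prdx3 (chr19:60864051-60874556, - strand), which removes hydrogen peroxide in the mitochondrial matrix with electrons from thioredoxin, stood at 212, 216, 219 and 214 in flox mice and at 236, 207, 240.1 and 213 in MI4KO mice. MI4KO mice 1 and 3 lay above every flox mouse and MI4KO mouse 2 lay below them. The means were 215 ± 2.69 and 224 ± 16.4 (SD, n = 4 each), a log2 fold change of 0.05 (95% interval -0.10 to 0.20, exact permutation p = 0.400).

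Gpx4 (chr10:80047166-80056439, + strand), which reduces lipid peroxides in membranes, stood at 412, 438, 424 and 434 in flox mice and at 503, 439.7, 506 and 381 in MI4KO mice. MI4KO mice 1, 2 and 3 lay above all flox mice and MI4KO mouse 4 below them. The log2 fold change was 0.09 (95% interval -0.11 to 0.29, exact permutation p = 0.314); without MI4KO mouse 4 it was 0.18, the groups no longer overlapped, and limma gave an unadjusted p of 0.0425 with an adjusted p of 0.947. Gpx4 is also uncertain as a count, since 68.9% of the 50-base windows of its transcript occur in the pseudogene Gpx4-ps2 or in AC122253.3. Neither is among the authors' genes, so no reads were counted under those names. How such reads were assigned was not tested. For Sod1 the share of such windows was 23.1%, all in Gm8566, which is also not among the authors' genes. For Sod2 it was 1.4%, and for the other 7 enzymes 0.0%.

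Gpx1 (chr9:108338903-108340343, + strand), the peroxidase of the cytosol and mitochondria, stood at 31.4, 27.7, 29.0 and 33.2 in flox mice and at 25.1, 32.1, 34.4 and 28.0 in MI4KO mice. The mice of both groups were interleaved. The log2 fold change was -0.03 (95% interval -0.25 to 0.20, exact permutation p = 0.857). Gpx3 (chr11:54902453-54910377, + strand), the peroxidase that is secreted into plasma, stood at 52.5, 63.5, 46.9 and 51.1 in flox mice and at 51.6, 51.5, 81.7 and 51.5 in MI4KO mice. One library decided its mean, because MI4KO mice 1, 2 and 4 were almost equal and MI4KO mouse 3 stood far above them. The means were 53.5 ± 7.07 and 59.1 ± 15.1 (SD, n = 4 each), with a log2 fold change of 0.12 (95% interval -0.19 to 0.43, exact permutation p = 0.629), and without MI4KO mouse 3 the MI4KO mean was 51.6 and the log2 fold change -0.04.

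Txnrd1 (chr10:82833951-82897712, + strand), which keeps thioredoxin of the cytosol reduced, stood at 83.9, 72.7, 70.5 and 74.9 in flox mice and at 73.4, 66.8, 100.2 and 78.5 in MI4KO mice. MI4KO mouse 3 was again the highest, and the other MI4KO mice fell among or below the flox mice. The log2 fold change was 0.06 (95% interval -0.18 to 0.31, exact permutation p = 0.714), and -0.05 without MI4KO mouse 3. Taken by class, the fold changes of the 4 selenoproteins ran from -0.03 for Gpx1 to 0.12 for Gpx3. Those of the other 6 enzymes ran from -0.16 for Nqo1 to 0.22 for Hmox1, so the selenoproteins lay within the range of the others. Nqo1 and Hmox1 set that range, and the rest ran from -0.04 for Sod1 to 0.05 for Prdx3. Gpx1 lay among these, and Gpx3, Gpx4 and Txnrd1 lay above them. Without MI4KO mouse 3 the fold changes of Gpx3 and Txnrd1 were -0.04 and -0.05.

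Nqo1 and Hmox1, the inducible pair, lay at opposite ends of the fold changes. Nqo1 (chr8:107388225-107403206, - strand), which reduces quinones by transferring both electrons at once, stood at 60.6, 43.2, 53.3 and 46.9 in flox mice and at 49.8, 41.4, 46.3 and 43.7 in MI4KO mice. All 4 MI4KO mice lay below the flox mean of 51.0 ± 7.64 (SD, n = 4), and MI4KO mouse 2 was the lowest of the 8, but the other 3 lay among the flox mice. The log2 fold change was -0.16 (95% interval -0.39 to 0.07, exact permutation p = 0.229), -0.08 without flox mouse 1, which also carried the liver genes, and -0.23 without flox mouse 2, where limma gave an unadjusted p of 0.0416 with an adjusted p of 1.0. Whether the liver genes in flox mouse 1 have a part in its Nqo1 value was not tested.

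Hmox1 (chr8:75093621-75100589, + strand), which opens the heme ring to biliverdin, iron and carbon monoxide, stood at 5.99, 3.47, 3.38 and 5.25 in flox mice and at 4.21, 5.24, 7.05 and 4.96 in MI4KO mice. Flox mice 2 and 3 were the lowest and MI4KO mouse 3 the highest. The means were 4.52 ± 1.30 and 5.36 ± 1.2 (SD, n = 4 each), a log2 fold change of 0.22 (95% interval -0.17 to 0.61, exact permutation p = 0.371). With 45 to 106 reads a mouse, Hmox1 was the least deeply read of the 10. Reads alone would give it a coefficient of variation of 11.6%, and the 8 mice showed 25.2%.

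Hmox1 is highly expressed in macrophages, and the macrophage list was compared with it mouse by mouse. The list (12 genes, led by Lyz2, C1qc and C1qa, with Fcgr1 under 1 in all mice) summed to 58.9, 51.3, 48.2 and 60.6 in flox mice and to 49.9, 64.6, 69.1 and 53.8 in MI4KO mice. The 4 mice with the highest sums, flox mice 1 and 4 and MI4KO mice 2 and 3, are the 4 with the highest Hmox1. Lyz2, C1qa and C1qb also had their 4 highest values in these mice, but the other genes of the list did not. Cd68 was lowest in flox mouse 1 (1.31), and Mrc1 was highest in MI4KO mouse 4 (4.47). The group ranges of the list overlapped (48.2 to 60.6 and 49.9 to 69.1), and its part in the Hmox1 values was not tested.

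Hmox1 had the largest SD of log2 values over the 8 mice, 0.305, and the genes most like it were searched among 11863 others. The 5 with the highest Pearson r over the 8 mice were Anks6 (0.98), Tgfbr3 (0.96), Hdac10 (0.93), Sulf1 (0.92) and Ccl6 (0.92). Ccl6, a chemokine of myeloid cells, ran from 0.975 in flox mouse 3 to 5.12 in MI4KO mouse 3, the mice with the lowest and highest Hmox1. These genes are the upper end of a search over all genes and share the libraries with Hmox1, so the values describe likeness and carry no p.

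**Figure D2:**
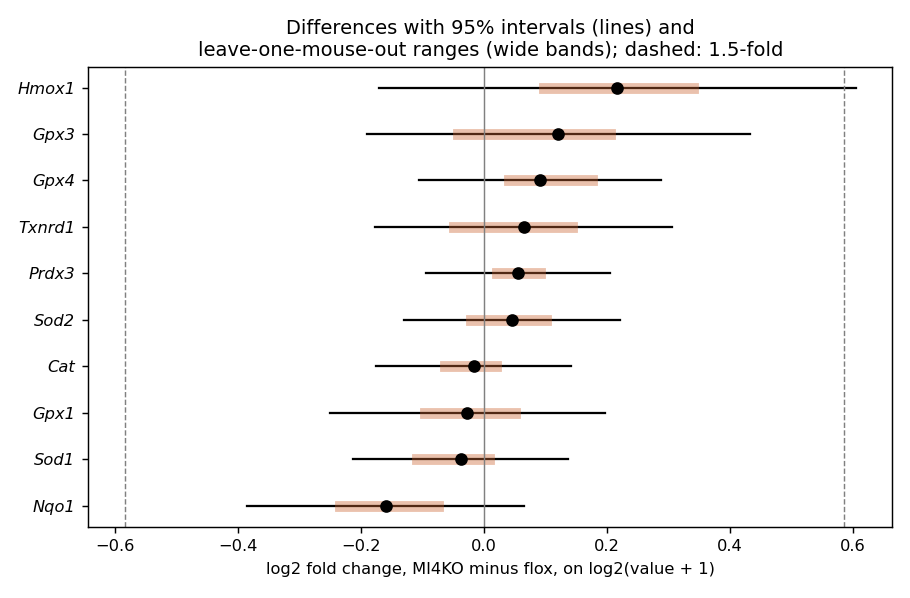
Log2 fold change (horizontal axis, MI4KO minus flox on log2(value + 1)) of the 10 enzymes, with dots for the estimate, thin lines for 95% intervals, wide bands for the range when each mouse was left out in turn, and dashed lines at 1.5-fold. All 10 intervals hold 0, and only that of Hmox1 passes a dashed line.

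The intervals bound what differences these 8 mice could have hidden. For the 9 enzymes other than Hmox1 they ran, as fold changes on value + 1, from 0.766 at the lower end (Nqo1) to 1.35 at the upper end (Gpx3), so a 1.5-fold change either way lay outside them. For Hmox1 the interval ran from 0.888 to 1.52. For 7 of the 10 enzymes the log2 fold change was smaller than its own standard error. In 7 of 10 the SD was larger among MI4KO than among flox mice, and in 5 of 10 after MI4KO mouse 3 was left out. The share of all genes tested with a larger SD in MI4KO mice is not given, so these counts show nothing particular to the enzymes. Without that mouse the MI4KO SD fell for Gpx3 from 15.1 to 0.0652, while for Gpx4 it was 59.3 with the mouse and 61.0 without it.

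MI4KO mouse 3 gave the highest of the 8 values for 8 of 10 enzymes, every one but Cat and Nqo1, while over all genes tested it gave the highest value for 30.9%. That count depended on the scaling. With values scaled to library totals MI4KO mouse 3 was the highest for 4 enzymes (Sod2, Gpx3, Hmox1 and Txnrd1) and 13.2% of all genes, and with median-of-ratios scaling for 5 (Sod1 in addition) and 21.4% of all genes. Sod2, Gpx3, Hmox1 and Txnrd1 were highest in MI4KO mouse 3 under each of the 3 scalings, and Gpx1, Gpx4 and Prdx3 only with the deposited TMM values. MI4KO mouse 2, by contrast, gave the lowest value for 4 of 10 enzymes with the deposited values and for 16.7% of all genes. The glucocorticoid response and neutrophil lists were high in MI4KO mouse 3 as well, and their part in these values was not tested. Without that mouse 3 of the 10 fold changes were above zero and 7 below, compared with 6 and 4 with it.

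**Figure D3:**
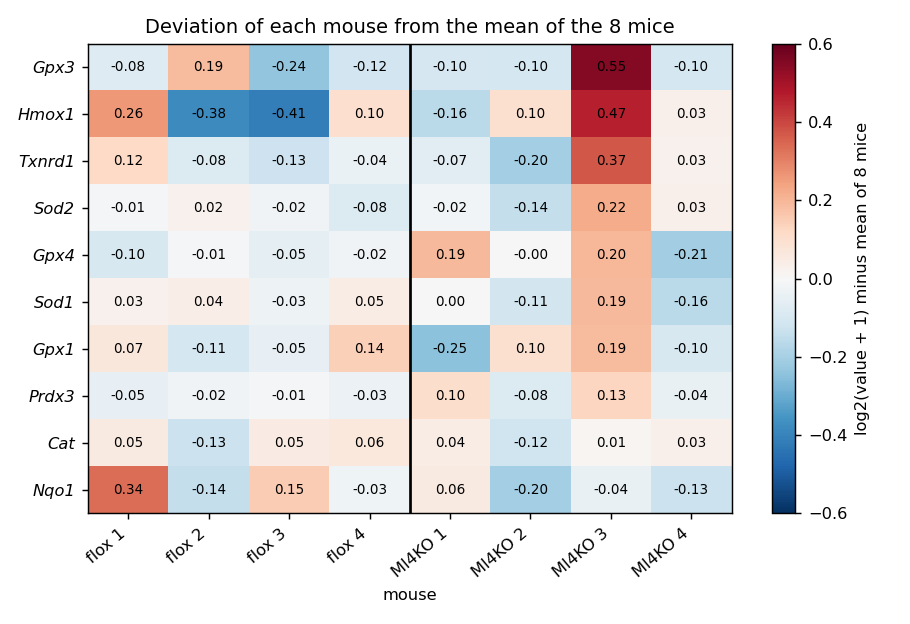
Difference of log2(value + 1) in each mouse (columns) from the mean of the 8 mice, for the 10 enzymes (rows), in red above the mean and blue below. The column of MI4KO mouse 3 is above the mean for 9 enzymes, most for Gpx3 and Hmox1, while the flox columns are mixed.

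Levels of different enzymes were compared per kilobase of transcript. As means over the 8 mice of CPM per kb of the principal transcript, Gpx4 led with 461 ± 44.7 (SD, n = 8), followed by Sod1 at 269 ± 20.2, Cat at 197 ± 10.5, Prdx3 at 149 ± 8.02 and Sod2 at 70.4 ± 5.38. Each of these lay above the next in 8 of 8 mice with no overlap of their ranges. The levels of Gpx4 and Sod1 are uncertain, since 68.9% and 23.1% of their 50-base windows also occur in other genes. The part of such reads in these ranks was not tested. Gpx3 at 35.3 ± 7.09, Nqo1 at 31.0 ± 4.07 and Gpx1 at 28.1 ± 2.94 formed a middle set, in which neighbours did not differ beyond their spread, Gpx3 exceeding Nqo1 in 6 of 8 mice and Nqo1 exceeding Gpx1 in 5 of 8. Txnrd1 at 22.0 ± 2.97 lay below Gpx1 in 8 of 8 mice, although their ranges overlapped, and Hmox1 was last at 3.15 ± 0.794, below every other enzyme in each mouse.

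**Figure D4:**
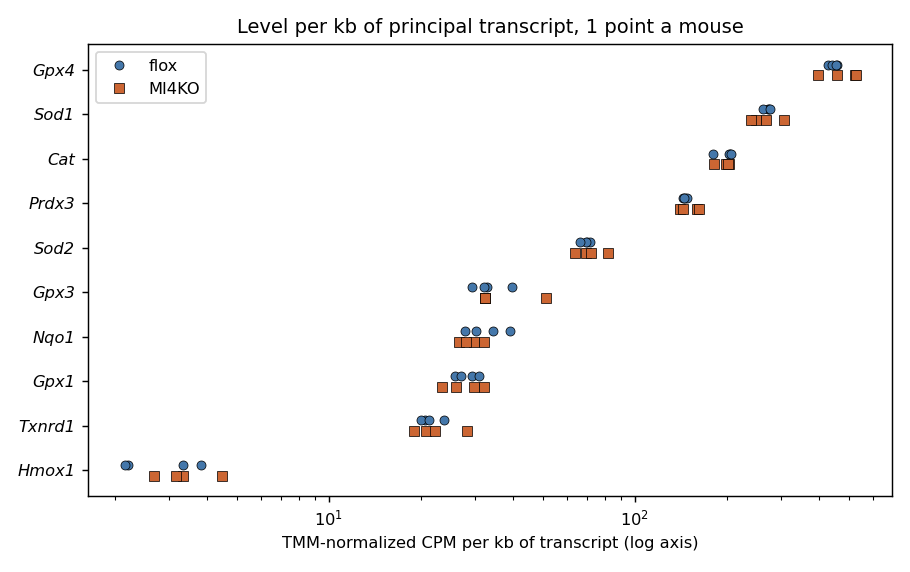
TMM-normalized CPM per kb of transcript (horizontal log axis) for the 10 enzymes, with circles for flox and squares for MI4KO mice. Levels span from 3.15 for Hmox1 to 461 for Gpx4, and the genotypes lie on top of each other at every gene.

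The transcript length used sets part of this order. With all annotated exons of a gene joined, the level of Sod1 was 43.4 per kb and that of Sod2 41.2, both below Cat and Prdx3 at 197 and 149, while Gpx4 stayed first at 256 and Hmox1 last at 2.82. The length that the authors' transcript set gives each gene was not used here. Without a length, a gene can be placed only among all genes by its CPM, and by that Cat, Gpx4 and Sod2 stood above 97.9%, 97.6% and 97.4% of the genes tested and Hmox1 above 22.8%.

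Promoters were searched for the antioxidant response element core TGACNNNGC, which Nrf2 binds with small Maf proteins, and for the interferon-stimulated response element core, a repeat of GAAA with 2 bases between, which IRF proteins bind, on both strands of the 300 bases from 250 before to 50 after each RefSeq start (GRCm38.p6). Of the enzymes 9 matched the promoter table, all but Hmox1. The antioxidant core was in promoters of 2 of 9, Sod1 and Txnrd1, and in those of 14.0% of all 27025 genes. For Txnrd1 it was in the promoter at chr10:82858956-82859255 and not in its others. The IRF letters were in 0 of 9 and in 3.99% of all genes. For both cores, Nqo1 included, the lack of a match says only that the letters are not in these windows. Sequence further upstream was not searched.

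Around the 10 enzymes, transcripts of other redox genes were tested, with log2 fold changes from -0.63 for Hp to 0.35 for Slc40a1. The pathway lists hold 150 further genes, of which 148 have a row and 124 were tested. By limma 2 of the 124 (1.61%), Gss and Lancl1, had an unadjusted p under 0.05, both lower in MI4KO mice, beside 3.36% of all genes. Of the 124, 0 had an adjusted p under 0.05. Lancl1 was listed with its value in these mice known, so its call is not independent of the list. The direction depended on the scaling, since library totals gave 7 genes, 6 higher and 1 lower, and median-of-ratios scaling 4, with 2 higher and 2 lower. Without MI4KO mouse 3 there were 8, with 3 higher and 5 lower. With the deposited values the fold changes of the 124 were split evenly, 62 above and 62 below zero, with a median of 0.00 on the log2 scale. edgeR gave 4 genes (2 higher, 2 lower) and DESeq2 2 (1 higher, 1 lower) at an unadjusted p under 0.05, and 0 adjusted.

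Both genes belong to the list for glutathione synthesis and recycling. Gss, glutathione synthetase, which adds glycine in the last step of glutathione synthesis, stood at 11.8, 12.2, 13.3 and 12.5 in flox mice and at 11.6, 9.70, 9.51 and 10.4 in MI4KO mice. Lancl1, a glutathione-binding protein of the LanC-like family, stood at 32.1, 31.1, 32.4 and 30.5 in flox mice and at 25.3, 24.3, 26.0 and 20.7 in MI4KO mice. For both, every MI4KO mouse lay below every flox mouse, for Gss by a small margin. The log2 fold changes were -0.25 (SE 0.0942) for Gss and -0.38 (SE 0.0849) for Lancl1, each with an exact permutation p of 0.0286, the smallest that 4 against 4 allow, and an adjusted p by limma of 1.0. Groups that do not overlap were found in 2 of the 124 (these genes), beside 2.07% of all genes. Lancl1 was on the list with its value in these mice known, and Gss lost an unadjusted p under 0.05 when flox mouse 3 or MI4KO mouse 2 was left out, with library-total scaling and by DESeq2.

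The partners of the peroxidases did not pass the test either. In the list of peroxiredoxins and sulfiredoxin 0 of 7 passed at an unadjusted p under 0.05, with fold changes from -0.24 for Prdx4, the peroxiredoxin of the endoplasmic reticulum, to 0.17 for Srxn1, which repairs overoxidized peroxiredoxins. In the list of thioredoxin and glutaredoxin 0 of 9 passed, from -0.08 for Txnrd2 to 0.08 for Txnrd3, the narrowest range of the lists. The list of superoxide dismutases and catalase gave 0 of 5, from -0.13 for Ccs, the chaperone that loads copper into Sod1, to 0.05 for Sod2. For the glutathione peroxidases it was 0 of 5 tested, from -0.29 for Gpx8 to 0.12 for Gpx3. Gpx8, the peroxidase of the endoplasmic reticulum, stood at 10, 8.12, 11.3 and 11.7 in flox mice and at 12.3, 8.79, 4.85 and 8.28 in MI4KO mice. In that gene MI4KO mouse 3 was the lowest, the opposite of its place for Gpx1, Gpx3 and Gpx4.

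Supply and transfer of reducing power were also tested. NADPH supply gave 0 of 12 at an unadjusted p under 0.05, from -0.14 for Tkt to 0.20 for Nnt. Nnt, the transhydrogenase of the inner mitochondrial membrane that makes NADPH from NADH, stood at 666, 562, 668 and 626 in flox mice and at 901, 903, 544 and 613 in MI4KO mice. MI4KO mice 1 and 2 lay above the other 6 mice, and MI4KO mice 3 and 4 lay within or below the flox range; without MI4KO mouse 3 the log2 fold change was 0.33 and its unadjusted p by limma fell under 0.05. The glutathione transferases gave 0 of 16, from -0.33 for Gstt3 to 0.11 for Mgst3, and heme and iron handling 0 of 11, from -0.63 for Hp to 0.35 for Slc40a1. Hp, haptoglobin, a plasma protein made chiefly in liver, was highest in flox mouse 1 at 32.8, the library with the liver genes, against 3.05 to 21.9 in the others, and its log2 fold change without that mouse was -0.30. Slc40a1, the iron exporter ferroportin, was highest in MI4KO mouse 3 at 18.3, against 6.85 to 10.3 in the others, and its fold change without that mouse was 0.11.

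The Nrf2 list, its regulators and targets, gave 0 of 25 at an unadjusted p under 0.05 and a median log2 fold change of 0.06, with 16 above and 9 below zero. In it 14 of 25 genes, Hmox1 and Txnrd1 among them, were highest in MI4KO mouse 3 with the deposited values, beside 30.9% of all genes. This was not particular to the Nrf2 list. The share was larger for thioredoxin and glutaredoxin (8 of 9), peroxiredoxins and sulfiredoxin (5 of 7) and glutathione peroxidases (3 of 5). It was smaller in the other redox lists. Maff, a small Maf protein that pairs with Nrf2, stood at 8.42, 9.92, 8.63 and 7.29 in flox mice and at 6.46, 7.76, 27.7 and 8.88 in MI4KO mice. Its log2 fold change of 0.29 rested on MI4KO mouse 3 and was -0.14 without it. Selenium and selenoprotein synthesis gave 0 of 9, from -0.13 for Eefsec, the elongation factor that brings selenocysteine to the ribosome, to 0.12 for Secisbp2, which binds the selenocysteine insertion element. Other selenoproteins gave 0 of 11, from -0.26 for Sepn1 to 0.18 for Ept1, methionine sulfoxide reductases and repair 0 of 8, from -0.20 for Ogg1 to 0.11 for Msrb2, and oxidant sources 0 of 15, from -0.39 for Nos2 to 0.22 for Nos1.

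**Figure D5:**
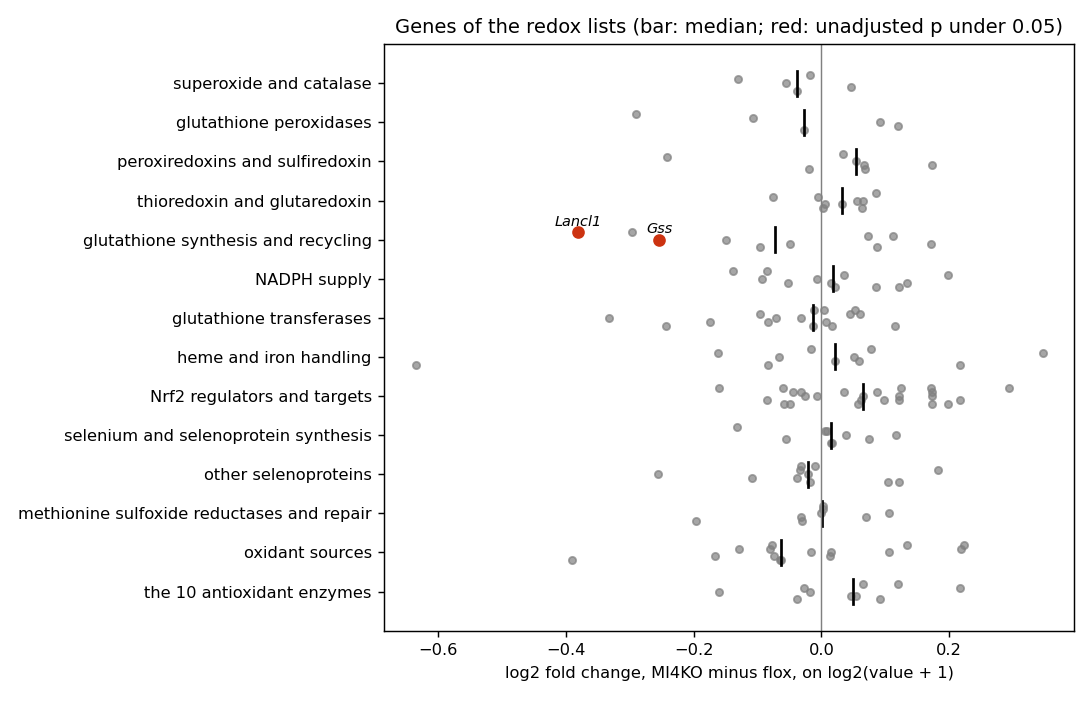
Log2 fold change (horizontal axis, MI4KO minus flox) of every tested gene in the redox lists (rows) and the 10 enzymes, with a bar at each list's median and red for an unadjusted p under 0.05. Only Gss and Lancl1 are red, and the medians run from -0.07 to 0.06.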

How the data were processed

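SOL RNA of 8 mice was measured, 4 MI4KO and 4 flox, numbered 1 to 4 in each group in ascending order of the mouse numbers in the labels. The authors made stranded mRNA libraries, read 50 bases from one end, aligned the reads with Bowtie2 2.1.0 to the UCSC transcript set and estimated expression with RSEM 1.2.15 (build mm10 in the submitters' processing notes). The deposited signal is TMM-normalized CPM, a gene-level value for each mouse. The authors also deposited a fold-change score, a p-value and an FDR, from an edgeR comparison of their own, which were not used. Dividing by the step of each mouse gave whole reads for 100% of the non-zero values (tolerance 0.02). Values of 0.181 to 0.225, depending on the mouse, stand for 3 reads, the least taken as detected, and totals cover counting error only, since no molecular identifiers were used.

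limma 3.58.1 (R 4.3.3) was fitted with a mean-variance trend to log2(value + 1) of the 11865 genes that reached a value of 1 in 4 or more mice, with Benjamini-Hochberg adjustment over all of them. Fold changes are on that scale and understate those of low genes. The design allowed for counts or normalized values, and limma was used because the values are normalized. edgeR 4.0.16 and DESeq2 1.42.0 on the recovered reads were alternatives, as were other pseudocounts, filters, scalings, variance models, a mouse-number term and leaving out mice. Exact permutation tests, two-sided, were run on each enzyme with scipy 1.17.1. The limma step was tested on simulated data. Separate mice are taken as separate samples.

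Genes named are the 10 enzymes, Irf4, list genes with an unadjusted p under 0.05 or without overlap, the lowest and highest fold change of each list, and the 5 genes most like the enzyme with the largest SD. The enzymes, lists and markers were chosen with earlier results of these data known. Gene models are GENCODE M21 on GRCm38, and promoters RefSeq.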

Additional observations from a re-analysis of the deposited data

Results flagged for a closer look

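On log2(value + 1), the gap of a mouse to the nearest of the other 3 in its group was divided by the group's range. A mouse was marked where this share passed Dixon's critical value for 4 samples at 95%. The untransformed values, given below, can mark other mice, such as MI4KO mouse 3 for Maff and flox mouse 1 for Hp. Of 70 groups examined, 4 were marked, 2 of them among the 20 groups of the 10 enzymes, and chance marks about 1 in 20.

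Gpx3 in MI4KO mouse 3 was 81.7, far above the other MI4KO mice at 51.5 to 51.6. Cat in flox mouse 2 was 470.2, below the other flox mice at 532 to 538. Gstt3 in MI4KO mouse 3 was 1.73, below the other MI4KO mice at 2.78 to 2.96. Mgst3 in flox mouse 3 was 219.9, above the other flox mice at 203.0 to 206.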

How the results depend on the processing

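The 10 fold changes were recomputed under 20 alternatives. Of 200 values 184 kept the sign of the value in the report and 16 did not, and Gpx4, Prdx3, Nqo1 and Hmox1 kept it in all 20. The lowest unadjusted p was 0.0416 and the lowest adjusted p 0.908, so 0 enzymes passed an adjusted p under 0.05 under any alternative. With library-total scaling the sign turned for Sod1 (0.0060), Cat (0.027) and Gpx1 (0.016), with median-of-ratios scaling for Cat (0.0034) and by DESeq2 for Cat (0.00094). Without flox mouse 1 and MI4KO mouse 3 together it turned for Sod2 (-0.0164) and Gpx3 (-0.0487). Leaving out each mouse in turn gave ranges of -0.109 to 0.00881 for Sod1, -0.0205 to 0.101 for Sod2, -0.0637 to 0.0197 for Cat, -0.0957 to 0.0504 for Gpx1, -0.0428 to 0.204 for Gpx3 and -0.0496 to 0.143 for Txnrd1. The number of enzymes with an unadjusted p under 0.05 was then 0 to 1 (Nqo1 without flox mouse 2, Gpx4 without MI4KO mouse 4), and the number without overlap also 0 to 1 (Cat without flox mouse 2, Gpx4 without MI4KO mouse 4). The cause of these changes was not tested.

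The count of 2 further redox genes was 7 with library totals, 4 with median-of-ratios scaling, 5 without the trend, 4 by edgeR, 8 without both mice, and 1 to 8 when each mouse was left out, 1 without flox mouse 3 and 8 without MI4KO mouse 3. Of the 399 genes with an unadjusted p under 0.05, 12.3% were higher in MI4KO mice. The other scalings each gave a set of 395 genes of their own. Of these, 66.6% were higher with library totals and 34.4% with median-of-ratios scaling. The median of all genes moved from -0.01 to 0.03 and 0.00. Over the alternatives the number of genes with an unadjusted p under 0.05 ran from 248 to 634. A direction over many genes therefore depends on the scaling. Depth limits Irf4 (from 4 reads), Nos2 (from 23), Gstt3 (from 26), Hp (from 42), Hmox1 (from 45) and Prdx4 (from 49) most among the redox genes named. Irf4 did not reach the filter at a value of 5, nor without flox mouse 2, 3 or 4 or MI4KO mouse 4. It has no value in those settings. No paired analysis was possible because each mouse number occurs once.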
